A study of Mus musculus with 32 samples.

Results

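Sphingolipid genes of the mouse jejunum were described here by the sites at which the transcription factor HNF4A was called near them. Of the 8 genes, Sptlc2, Degs1 and Degs2 act in ceramide synthesis. Enpp7, Smpd3, Asah1 and Asah2 act in the breakdown of sphingomyelin and ceramide, and Smpdl3b encodes a relative of acid sphingomyelinase. The gene list and a site in intron 1 of Degs2 were selected on these same HNF4A peak lists, with the relative width of that site in the lists from GF+HFM and CV+HFM mice in view, so values for that contrast are given as a description and no test was run at these genes. Peaks of the 8 lists that shared at least 1 bp were merged into 45552 sites, and 53 of them lay in the body of 1 of the 8 genes or within 20 kb on either side. A merged site was called in a library when that library had any peak in it.

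HNF4A ChIP-seq, in which chromatin fragments bound by HNF4A are pulled down with an antibody and sequenced, was done on jejunal intestinal epithelial cell (IEC) preparations of male C57BL/6J mice aged 10 to 12 weeks. One group of 4 mice was germ-free (GF+HFM) and the other 4 were ex-germ-free mice colonized with a conventional microbiota for 14 days (CV+HFM). All 8 mice had been gavaged with a high-fat meal (HFM) of egg yolk emulsion and were killed 2 hours later, so both groups carry the meal and no group without it was used here. The preparations were unsorted and hold mostly villus epithelium with some crypts and mesenchymal cells, each library came from 1 mouse, and the labels list 1 input control library for each group.

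Sphingolipids are membrane lipids built on a sphingoid base. Serine palmitoyltransferase, of which Sptlc2 encodes a subunit, starts their synthesis, and the desaturases encoded by Degs1 and Degs2 finish ceramide, with Degs2 also able to add the hydroxyl group of phytoceramides that are typical of the intestine. In the gut lumen, dietary sphingomyelin is split by the alkaline sphingomyelinase Enpp7 and the ceramide released is split by the neutral ceramidase Asah2, both on the enterocyte brush border. HNF4A is a nuclear receptor of the enterocyte that binds DNA as a homodimer, at direct repeats of a half-site such as AGGTCA with 1 base between the copies, and the variant CAAAGTCCA is typical of HNF4 factors.

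The sequences of 6 sites are shown because the results below turn on them. They include the Degs2 intron 1 site and the neighbouring site at the 3′ end of Degs2. The others are the Smpdl3b site with the opposite difference in relative width and 3 sites with close motif matches. Letters are the mm9 plus strand, 5′ to 3′. In Degs2 site 4 (chr12:109932418-109932717, 300 bp around the bases covered by most libraries) the capitals mark AGATAA, which is of GATA type, and CAAAGTCCA, both of which lie on the minus strand. In Degs2 site 5 (chr12:109927590-109927724), Smpdl3b site 7 (chr4:132291936-132292095) and Degs1 site 3 (chr1:184198587-184198746) they mark the 13 bases closest to the AGGTCA repeat, with 4, 4 and 1 mismatches. In Sptlc2 site 1 (chr12:88749325-88749423) and Asah2 site 8 (chr19:32092861-32093001) they mark CAAAGGTCA on the minus strand.
Degs2 site 4: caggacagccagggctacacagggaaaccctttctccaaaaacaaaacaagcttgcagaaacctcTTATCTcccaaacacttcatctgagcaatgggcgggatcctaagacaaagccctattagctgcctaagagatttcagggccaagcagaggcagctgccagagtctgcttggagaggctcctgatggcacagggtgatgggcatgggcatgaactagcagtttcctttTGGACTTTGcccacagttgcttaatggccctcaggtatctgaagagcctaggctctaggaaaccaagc
Degs2 site 5: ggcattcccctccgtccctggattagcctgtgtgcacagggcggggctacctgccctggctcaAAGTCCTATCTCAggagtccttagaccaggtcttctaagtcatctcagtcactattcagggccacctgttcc
Smpdl3b site 7: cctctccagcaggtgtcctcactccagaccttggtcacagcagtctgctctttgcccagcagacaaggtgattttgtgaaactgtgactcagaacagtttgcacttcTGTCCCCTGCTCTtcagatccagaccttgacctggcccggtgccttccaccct
Degs1 site 3: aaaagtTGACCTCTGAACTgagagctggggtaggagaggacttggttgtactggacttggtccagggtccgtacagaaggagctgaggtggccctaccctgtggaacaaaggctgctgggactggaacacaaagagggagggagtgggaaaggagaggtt
Sptlc2 site 1: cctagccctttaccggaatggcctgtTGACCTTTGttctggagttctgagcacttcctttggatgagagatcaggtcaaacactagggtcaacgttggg
Asah2 site 8: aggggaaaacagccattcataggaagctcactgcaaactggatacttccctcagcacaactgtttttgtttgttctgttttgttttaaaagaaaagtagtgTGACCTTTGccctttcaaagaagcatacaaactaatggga

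The lists give the position of each peak and no read count, fold enrichment or summit, so depth is unknown and the only strength that could be ranked was peak width. A width percentile here is the share of peaks of the same library that were narrower. GF+HFM lists held 31061 to 36846 peaks, whereas CV+HFM lists held 29345, 9206, 21033 and 4533 peaks in replicates 1 to 4. CV+HFM replicates 2 and 4 had the shortest lists, and counts of calls below moved with list length. The 6 enterocyte marker genes Alpi, Fabp2, Vil1, Apoa4, Lct and Sis each had a site called in at least 4 libraries, with 3 to 19 sites per gene. In such bulk preparations, fewer cells with HNF4A at a site and less HNF4A per cell cannot be told apart. Of 15 marker genes of other cell types, which had 0 to 4 sites each, 7 also had a site called in at least 4 libraries (Lgr5, Olfm4, Tff3, Chga, Cd3e, Col1a1 and Pecam1). They had at most 3 such sites, and the enterocyte genes had 2 to 17.

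HNF4A sites were frequent around all 8 genes and more of them were found in libraries of GF+HFM than of CV+HFM mice. The 53 sites were called 48, 42, 46 and 45 times in GF+HFM replicates 1 to 4. In CV+HFM replicates 1 to 4 they were called 38, 18, 33 and 13 times. The groups did not overlap (45.2 ± 2.50 against 25.5 ± 11.9, SD, n = 4 each), and the order of the CV+HFM libraries was that of their list lengths. As a share of the 53 sites, calls ranged from 79.2% to 90.6% in GF+HFM and from 24.5% to 71.7% in CV+HFM libraries. Over all 45552 sites the same shares ran from 64.0% to 76.4% and from 8.97% to 60.8%. With each list limited to its 4533 widest peaks, the length of the shortest list, sites at these genes were called 11 to 15 times in GF+HFM and 11 to 13 times in CV+HFM libraries.

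Of the 53 sites, 39 (73.6%) had more calls in GF+HFM than in CV+HFM, 14 had equal numbers and 0 had more in CV+HFM. In lists of equal length 11 sites had more calls in GF+HFM and 8 had more in CV+HFM. Over all sites of the full lists, 86.5% had more calls in GF+HFM and 2.86% had more in CV+HFM. In the full lists the share at the sphingolipid genes was thus below that background, which did not hold in every other setting. Where a call must cover 50% of a site it was 98.1%, beside 93.8% of all sites, and with peaks of at least 300 bp it was 95.7%, beside 96.6%. In the full lists, 13 of the 14 sites with equal numbers were those called in every library. These 13 made up 24.5% of the 53 sites, beside 7.56% of all sites. Asah2 site 4 was the single site with a call in each GF+HFM library and in no CV+HFM library (1.89%, beside 2.79% of all sites). Sites called in a single library made up 9.43% here and 21.6% overall. Merged sites at these genes were also wider, with a median of 670 bp (176 to 2717 bp) beside 437 bp over all sites. A merged site spans the peaks of every library that called it, so its width can grow with the number of calls. No comparison at equal numbers of calls was made.

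**Figure D1:**
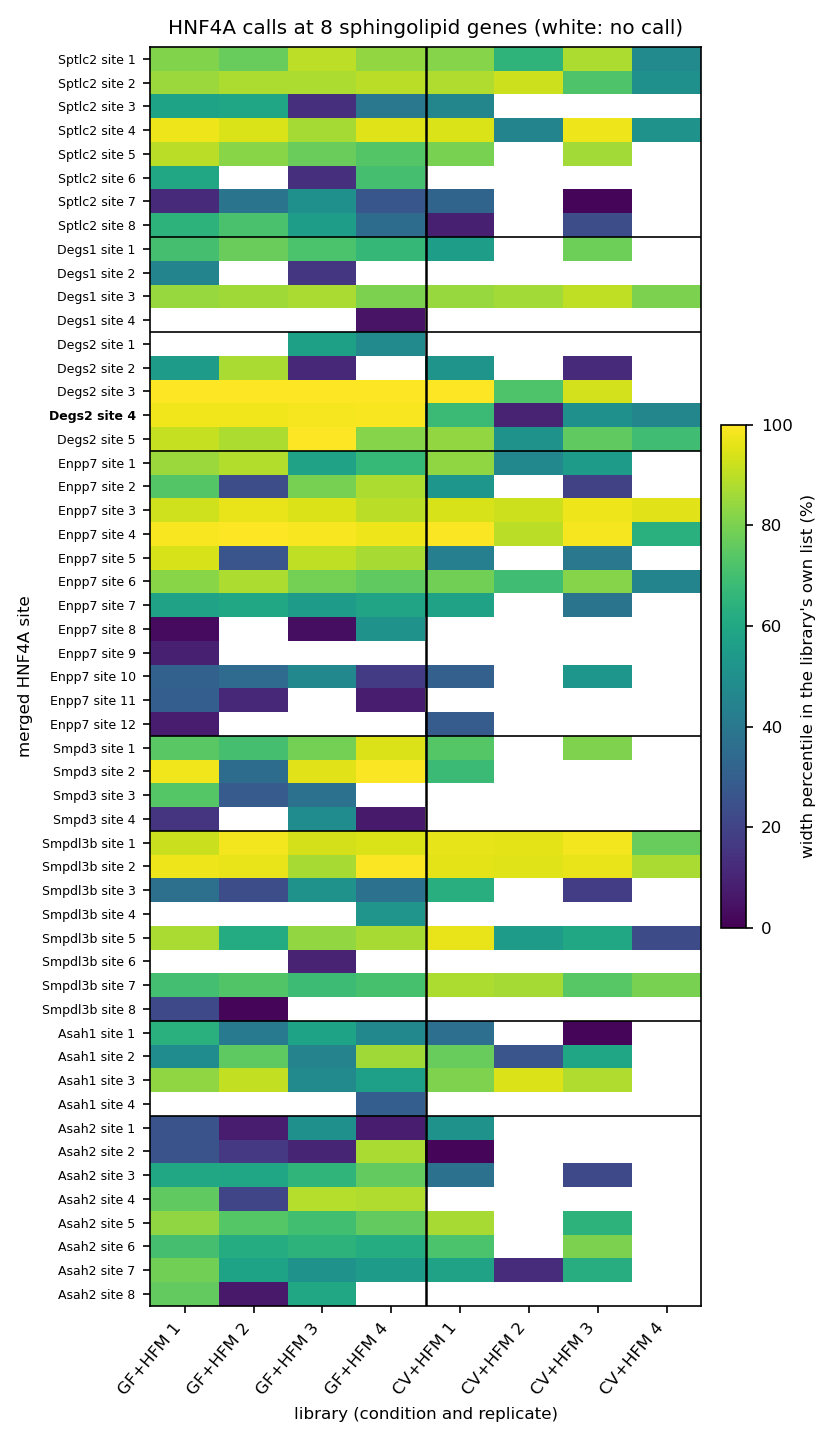
Width percentile of the 53 merged HNF4A sites (rows, numbered within each gene in the direction of transcription) in the 4 GF+HFM and 4 CV+HFM libraries (columns), where white cells have no call and horizontal lines part the genes. Degs2 site 4, in bold, is above the 97th percentile in each GF+HFM library and at 9.58 to 68.0 in the CV+HFM libraries, and white cells gather in CV+HFM replicates 2 and 4.

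Degs2, the desaturase and hydroxylase gene, spans 109925002 to 109940516 of chromosome 12 (mm9, minus strand, ENSMUSG00000021263.4) and has 3 exons. It had 5 sites, of which site 1 lies upstream, site 2 over the gene start, sites 3 and 4 in intron 1 and site 5 across intron 2 and exon 3. Site 4 runs from 109931749 to 109933816, its centre 7734 bp inside the gene, and was called in all 8 libraries. Its width percentile was 98.0, 97.7, 98.6 and 99.1 in GF+HFM replicates 1 to 4. In CV+HFM replicates 1 to 4 it was 68.0, 9.58, 50.2 and 46.0. The site was thus among the widest of every GF+HFM list and near or below the middle of 3 of the CV+HFM lists, with no overlap between the groups (98.3 ± 0.627 against 43.4 ± 24.5, SD, n = 4 each).

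The widest peak of site 4 measured 955, 784, 1281 and 1603 bp in GF+HFM replicates 1 to 4. In CV+HFM replicates 1 to 4 it measured 394, 119, 275 and 96 bp. Some libraries of both groups held several peaks in the site, 3, 2, 1 and 1 in GF+HFM and 2, 1, 2 and 1 in CV+HFM replicates 1 to 4. The summed width of these peaks was 1483, 949, 1281 and 1603 bp in GF+HFM replicates 1 to 4. It was 759, 119, 431 and 96 bp in CV+HFM replicates 1 to 4, so the groups did not overlap on this measure either. Median peak widths of the whole lists were 313, 298, 407 and 464 bp in GF+HFM replicates 1 to 4. They were 318, 186, 274 and 103 bp in CV+HFM replicates 1 to 4. In widest-peak bp, Degs2 site 5 and Enpp7 sites 3, 4 and 6, also called in all 8 libraries, did not overlap between groups either. The share of all merged sites with no such overlap, in widest-peak or summed bp, was not computed. The bp values are therefore not read as particular to these sites. The CV+HFM peaks together covered 759 of the 2068 bp of site 4 (36.7%), and the GF+HFM peaks covered all of it. Both outer ends of the merged site are ends of GF+HFM peaks, so this coverage follows in part from the merging. No such coverage of other sites is given here. The single peaks of CV+HFM replicates 2 and 4 did not overlap each other, so at most 7 libraries shared any base of this site. In contrast, the other 12 sites at these genes with a call in every library each held a base covered by all 8. Over the whole series, 97.3% of 3445 such sites did.

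The CAAAGTCCA match of site 4 lies from 109932650 to 109932658, 7858 bp inside the gene. Peaks of 4 GF+HFM libraries and of CV+HFM replicates 1 and 3 covered it. The peaks of CV+HFM replicates 2 and 4 lay on either side of it. The AGATAA match, from 109932483 to 109932488, was covered by 4 GF+HFM libraries and by CV+HFM replicate 1.

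**Figure D2:**
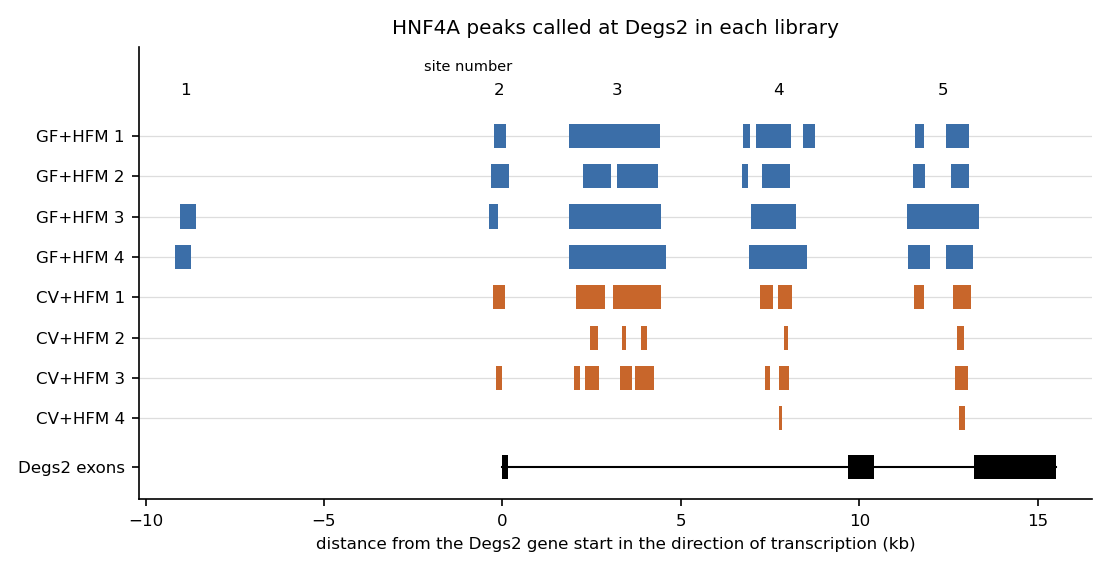
HNF4A peaks called at Degs2 in each of 4 GF+HFM (blue) and 4 CV+HFM (orange) libraries by distance from the gene start in kb, each bar 1 peak drawn to scale, with the exons in black and the site numbers on top. Around 8 kb, site 4 holds a peak of 784 to 1603 bp in each GF+HFM library, with smaller peaks beside it in replicates 1 and 2, and peaks of at most 394 bp in the CV+HFM libraries, where replicates 1 and 3 hold 2 each.

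By width percentile, the values of the neighbouring site 5 overlapped between the groups. In bp they did not, with widest peaks of 519 to 2031 bp in GF+HFM and 154 to 505 bp in CV+HFM. Summed widths, 840 to 2031 bp in GF+HFM and 154 to 788 bp in CV+HFM, did not overlap either. For bp, the share of all sites without overlap was not computed. Site 5 (109927163 to 109929193) had width percentiles of 91.3, 87.6, 99.9 and 81.8 in GF+HFM and of 83.8, 51.2, 75.6 and 69.5 in CV+HFM replicates 1 to 4. Within single libraries, site 4 stood above site 5 by 6.69, 10.0 and 17.3 percentile points in GF+HFM replicates 1, 2 and 4 and below it by a difference of -1.31 in replicate 3. It stood below site 5 in all 4 CV+HFM libraries, with differences of -15.8, -41.6, -25.4 and -23.5. The mean difference was 8.17 ± 7.72 points in GF+HFM and -26.6 ± 10.9 points in CV+HFM (SD, n = 4 each).

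Site 3 of Degs2, also in intron 1, was the widest of the 53 sites at 2717 bp. It stood at or above a percentile of 99.7 in each GF+HFM library. It stood at 99.8, 72.3 and 93.2 in CV+HFM replicates 1, 2 and 3 and had no call in replicate 4. It was a single peak in GF+HFM replicates 1, 3 and 4 but 2 peaks in GF+HFM replicate 2, and it was divided into 2, 3 and 4 peaks in CV+HFM replicates 1, 2 and 3. Site 2, across the start of Degs2, stood in GF+HFM replicates 1 to 3 at 55.0, 87.3 and 11.6, and in CV+HFM replicates 1 and 3 at 51.9 and 12.3. Site 1 was called in GF+HFM replicates 3 and 4 only, at 56.8 and 47.9.

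To compare sites on 1 scale, percentiles were also taken among the 3445 sites called in all 8 libraries. On this scale the Degs2 intron 1 site had percentiles of 87.9, 87.4, 91.5 and 94.3 in GF+HFM replicates 1 to 4. In CV+HFM replicates 1 to 4 it had 14.1, 1.97, 7.71 and 35.2. The difference of means, CV+HFM minus GF+HFM, was -75.5 points (90.2 ± 3.24 against 14.7 ± 14.5, SD, n = 4 each), the lowest of the 3445 sites. The site had been selected with this contrast in view, so its rank is a description only. When the widths of all peaks in a site were summed before ranking, the means were 92.1 and 39.1, a difference of -53.0 points. Degs2 site 5 differed by -20.9 points by its widest peak and by -40.7 points by summed width (87.7 against 47.1), so on the second measure it came closer to site 4. By the widest peak, the other 12 sphingolipid sites called in all 8 libraries had differences from -20.9 to 40.1 points with a median of 4.24, beside a median of 1.01 over all 3445 sites.

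Of the 13 sites, 5 had lower and 8 had higher mean percentiles in CV+HFM. Over all 3445 sites, 1625 (47.2%) had lower means in CV+HFM, so the count is not read as a trait of these genes. The Degs2 intron 1 site was the 1 site of the 13 whose libraries did not overlap and were lower in CV+HFM, as were 2.03% of all such sites. Smpdl3b site 7 was the 1 site whose libraries did not overlap and were higher in CV+HFM, as were 3.89% of all such sites. Its percentiles on this scale were 13.3, 20.7, 15.7 and 18.1 in GF+HFM and 52.0, 71.5, 30.7 and 73.9 in CV+HFM replicates 1 to 4 (16.9 ± 3.14 against 57.0 ± 20.1, SD, n = 4 each). In bp, the mean width of Smpdl3b site 7 was lower in CV+HFM, at 351 beside 487.5 bp. The groups overlapped in bp, at 202 to 550 bp in CV+HFM and 392 to 618 bp in GF+HFM. Smpdl3b site 7 lies in intron 7, but the nearest start of a protein-coding gene is that of Xkr8.

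**Figure D3:**
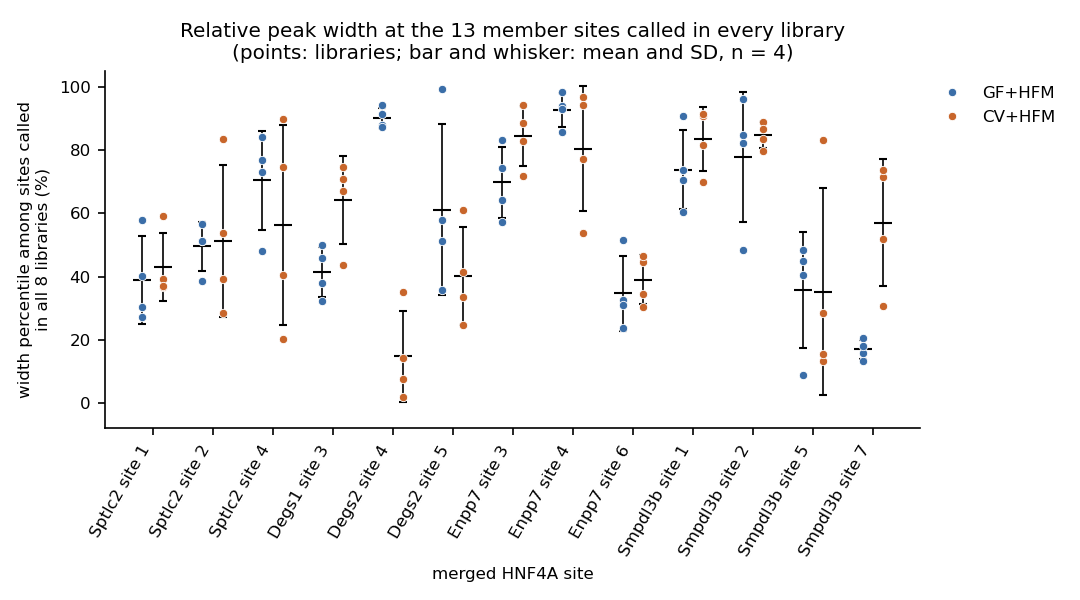
Width percentile, among the 3445 sites called in all 8 libraries, of the 13 such sites at sphingolipid genes (horizontal axis), with a point for each GF+HFM (blue) and CV+HFM (orange) library and the mean and SD (n = 4) in black. The 2 groups separate at Degs2 site 4, where CV+HFM is lower, and at Smpdl3b site 7, where CV+HFM is higher, and they overlap at the other 11 sites.

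Likeness to the Degs2 intron 1 site was ranked among the 3445 sites by root mean square difference of percentiles over the 8 libraries. These percentiles were those in each library's own full list. The sites most like it had Gm4840 (11.9), Btg2 (12.0), Morc3 (12.2), Gm1968 (12.5) and Gtf2ird1 (12.6) as the nearest genes. The median difference over all 3445 sites was 31.7. None of the nearest genes is in the list of sphingolipid genes.

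Sptlc2 and Degs1, the other genes of ceramide synthesis, each had at least 1 site whose relative width overlapped between the groups. Sptlc2 (chromosome 12, minus strand, 88646008 to 88729305, ENSMUSG00000021036.4) had 8 sites, 6 of them upstream, and 3 of these 6 were called in all 8 libraries. Its site 4, 9539 bp upstream of the gene start, had width percentiles of 97.3, 94.4, 86.7 and 95.1 in GF+HFM. In CV+HFM it had 94.5, 45.1, 97.6 and 51.2, so CV+HFM replicates 1 and 3 matched the GF+HFM range or passed it and replicates 2 and 4 fell below it. The site closest to the start of Sptlc2 ended 95 bp upstream, with calls in 3 GF+HFM libraries and none in CV+HFM. The site downstream of the gene lies nearest to the start of Ism2.

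Degs1 (chromosome 1, minus strand, 184205903 to 184212935, ENSMUSG00000038633.5), the main dihydroceramide desaturase gene, had 4 sites. Site 3, 14305 bp past the gene start and downstream of the gene, had width percentiles of 84.5, 85.7, 87.3 and 80.3 in GF+HFM and 84.7, 86.0, 90.5 and 80.5 in CV+HFM replicates 1 to 4. These values overlapped throughout (84.5 ± 3.00 against 85.4 ± 4.12, SD, n = 4 each), and even the shortest list held this site among its wider peaks. It holds AGTTCAGAGGTCA on the minus strand, 1 mismatch from the AGGTCA repeat. Site 2, across the start of Degs1, had calls only in GF+HFM replicates 1 and 3, at 45.2 and 15.9.

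Enpp7, the alkaline sphingomyelinase gene of the brush border (chromosome 11, plus strand, 118849417 to 118854243, ENSMUSG00000046697.9), had the most sites of the 8 genes, 12, although it is the shortest of them. It had 2.68 sites per 10 kb of gene body and flanks, more than 99.8% of 22380 protein-coding genes. Site 3, 9148 bp upstream, had width percentiles of 92.8, 96.8, 94.6 and 89.7 in GF+HFM. It had 93.8, 92.3, 97.3 and 95.6 in CV+HFM replicates 1 to 4, and the groups overlapped (93.5 ± 3.00 against 94.7 ± 2.18, SD, n = 4 each). Site 6, over the gene start, was also called in all 8 libraries, at 82.2, 87.7, 79.2 and 75.5 in GF+HFM and 78.8, 69.3, 82.0 and 45.3 in CV+HFM. Enpp7 was thus called at its start in every library, which was not so for the other 7 genes. Another 6 of its sites had calls throughout GF+HFM, and the 4 sites at 1396, 2552, 4864 and 14754 bp past its end were called in at most 3 libraries.

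**Figure D4:**
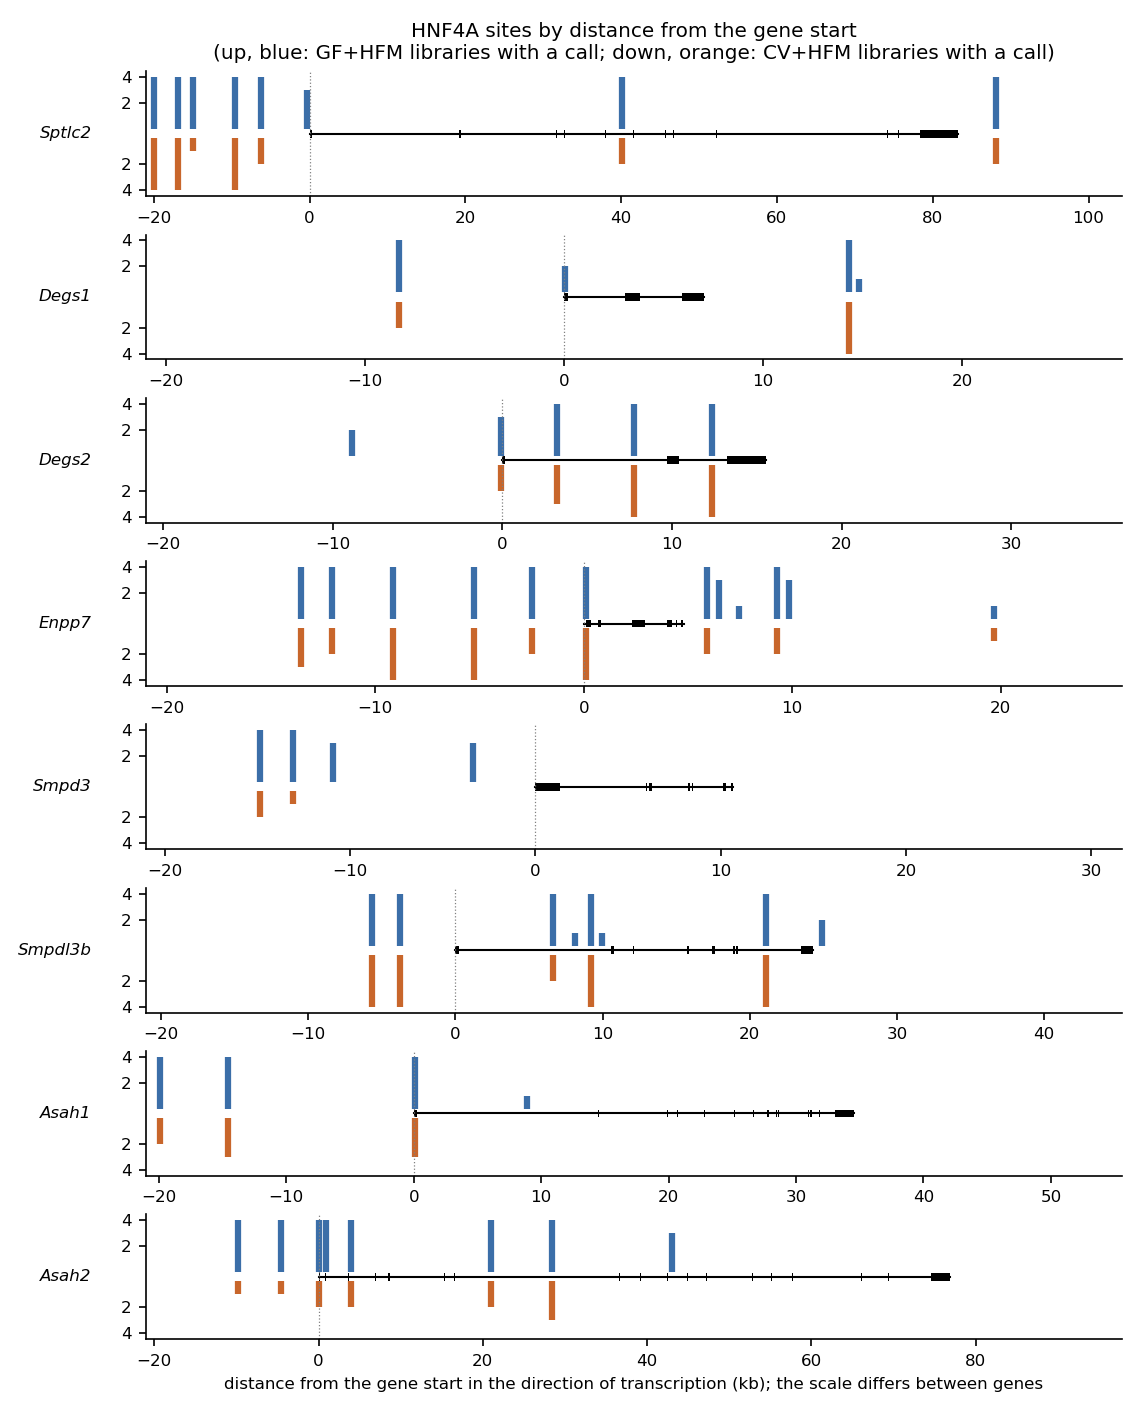
Merged HNF4A sites at the 8 genes by distance from the gene start in kb (horizontal axis, a scale of its own for each gene), with the number of GF+HFM libraries that called each site drawn up in blue and of CV+HFM libraries drawn down in orange, and exons in black. Most sites of Sptlc2 and Smpd3 lie upstream, those of Enpp7 lie on both sides and most of those of Degs2, Smpdl3b and Asah2 lie inside the gene, and only Enpp7 has a site over its start that was called in all 8 libraries.

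Smpd3 encodes a neutral sphingomyelinase of cell membranes (chromosome 8, minus strand, 108779159 to 108789819, ENSMUSG00000031906.7), and its sites had the fewest CV+HFM calls for their number. Its 4 sites lay upstream and were called 14 times in GF+HFM and 3 times in CV+HFM libraries, of 16 possible calls in each (87.5% and 18.75%, beside means of 71.6% and 33.1% per library over all sites). Site 1 had width percentiles of 74.6, 70.5, 79.2 and 94.8 in GF+HFM and 73.5 and 80.8 in CV+HFM replicates 1 and 3. Site 2 stood at 98.0, 35.5, 95.5 and 99.6 in GF+HFM and was called in CV+HFM replicate 1 alone, at 68.0. The gene model used here is a single short transcript, and later annotations, not used here, give a longer gene, in which sites placed upstream here could lie.

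Smpdl3b encodes a lipid-anchored phosphodiesterase related to acid sphingomyelinase (chromosome 4, minus strand, 132288881 to 132313167, ENSMUSG00000028885.8). It had 8 sites and the most sites called in all 8 libraries, 4. Site 2, 3764 bp upstream, stood at 97.4, 96.6, 86.8 and 99.4 in GF+HFM and 95.8, 95.1, 96.8 and 87.4 in CV+HFM replicates 1 to 4. These values overlapped (95.1 ± 5.64 against 93.8 ± 4.28, SD, n = 4 each). Site 1 is called in all 8 libraries as well but lies closer to the start of Rpa2, and the window also holds Eya3 and Xkr8, so these sites cannot be assigned to 1 gene from position.

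The 2 ceramidase genes had no site called in all 8 libraries. Asah1 (chromosome 8, minus strand, 42425551 to 42460127, ENSMUSG00000031591.8), the lysosomal acid ceramidase gene, had 4 sites. Site 3, over its start, had width percentiles of 83.5, 90.7, 47.6 and 56.5 in GF+HFM and 80.7, 94.7 and 88.3 in CV+HFM replicates 1 to 3, with no call in replicate 4. Its 3 CV+HFM values lay above 2 of the 4 GF+HFM values, and the groups overlapped.

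Asah2 (chromosome 19, minus strand, 32059144 to 32135959, ENSMUSG00000024887.8), the neutral ceramidase gene, had 8 sites that were called 31 times in GF+HFM and 11 times in CV+HFM libraries, of 32 possible calls in each (96.9% and 34.4%). The CV+HFM share was near the 33.1% mean over all sites, and the GF+HFM share was above the 71.6% mean. Site 3, over its start, stood at 59.7, 58.7, 65.4 and 75.8 in GF+HFM and at 37.7 and 21.9 in CV+HFM replicates 1 and 3. Site 4, which covers exon 2 from 32134666 to 32135522, was called in no CV+HFM library and stood at 75.5, 20.8, 89.0 and 88.0 in GF+HFM replicates 1 to 4. It was 213 bp wide in GF+HFM replicate 2 and 459, 761 and 857 bp wide in the others. Site 7, in intron 8, stood at 78.7, 58.1, 51.2 and 55.0 in GF+HFM and at 57.5, 12.7 and 62.3 in CV+HFM replicates 1 to 3. In this gene the CV+HFM calls came from replicate 1 and replicate 3 but for 1 call, in replicate 2, and none came from replicate 4.

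A low value in GF+HFM replicate 2 recurred at several sites, which were picked out after their values were seen. At Enpp7 sites 2 and 5, Smpd3 site 2 and Asah2 site 4 this library stood at 23.8, 26.2, 35.5 and 20.8. The other GF+HFM libraries stood between 73.2 and 99.6 there. At the Degs2 intron 1 site replicate 2 stood with the others.

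Motifs were searched in windows of 300 bp on both strands. In windows at the site centre, shares lay somewhat above those of all sites for 3 motifs and below for CAAAGTCCA and TTTATNG. Most counts are of few windows, so these differences are not read as a trait of the genes. Centred on each site, CAAAGTCCA occurred in 1 of 53 windows (1.89%), beside 5.73% of all 45324 windows with sequence, and CAAAGGTCA, which overlaps the AGGTCA repeat, in 4 (7.55%), beside 5.06%. AGATAA occurred in 13 (24.5%), beside 21.7%, and TTTATNG, a CDX-type motif, in 3 (5.66%), beside 15.3%. A repeat of AGGTCA with at most 1 mismatch was found in 3 (5.66%), beside 3.56%. These were Degs1 site 3, the Degs2 intron 1 site and Asah2 site 8. In the window printed above for the Degs2 intron 1 site, the closest match had 4 mismatches. With windows centred on the bases that most libraries covered, AGATAA occurred in 18 (34.0%), beside 22.1%, and CAAAGTCCA again in 1, the Degs2 intron 1 site, beside 6.36% of all sites and 14.3% of sites called in all 8 libraries. The 3 core windows with CAAAGGTCA (5.66%, beside 5.45% of all sites) belong to Sptlc2 site 1, Smpdl3b site 1 and Asah2 site 8. A repeat of AGGTCA with at most 2 mismatches occurred in 10 windows at the site centre (18.9%, beside 15.7%). It occurred in 8 core windows (15.1%, beside 16.6%).

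Each of the 8 genes had more sites per 10 kb than the median protein-coding gene, which had 0.220 (2 sites), and 34.5% of protein-coding genes had no site. The values were 0.536 for Asah1, 0.649 for Sptlc2, 0.685 for Asah2, 0.790 for Smpd3, 0.850 for Degs1, 0.901 for Degs2, 1.24 for Smpdl3b and 2.68 for Enpp7. Their median was 0.820, beside 0.651 for the 41 other sphingolipid genes described below. The 8 genes were selected on these same peak lists, so their density is a description only. Of the 53 sites, 23 lay upstream, 10 downstream, 5 over a gene start, 12 in introns and 3 across an exon and an intron. For 48 of them the nearest start of a protein-coding gene was that of the gene itself.

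A wider list of 41 sphingolipid genes had 271 sites, and 36 of its genes had at least 1. Of these sites, 244 (90.0%) had more calls in GF+HFM than in CV+HFM, 24 had equal numbers and 3 had more in CV+HFM, beside the 86.5% and 2.86% of all sites. Called in all 8 libraries were 18 (6.64%), beside 7.56% of all sites. The most sites lay at Sgms1 (30), a sphingomyelin synthase, Cers6 (19), a ceramide synthase, B4galt6 (15), a lactosylceramide synthase, and Sphk2 (15), a sphingosine kinase, followed by Sgpl1, Spns2 and B4galt5 with 14 each. No site was found at Sptlc3, Ormdl2, Cers3, Smpd1 or Galc. The ceramidases Acer1, Acer2 and Acer3 had 17 sites, each with more calls in GF+HFM. In the de novo synthesis genes, 26 of 30 sites had more calls in GF+HFM and 4 had a call in every library.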

How the data were processed

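HNF4A ChIP-seq peak lists of jejunal IECs from 4 GF+HFM and 4 CV+HFM mice were used, grouped by their labels. The authors aligned the reads with Bowtie2 (mm9). Per mouse, they ran MACS2 2.1.1.20160309 against input DNA at a false discovery rate of 0.05 and a bandwidth of 300 bp. The deposited values are start and end positions in bp with no strength or count, so depth is unknown. Other libraries of the series were not analysed here. The genes and lists were chosen with earlier results of these data known.

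Peaks were merged with Python 3.11.15 and numpy 2.4.6, and all 45552 sites equalled those of bedtools 2.31.1. Genes followed GENCODE M1 (mm9), with the transcript of the most exons. Width percentiles count ties as equal parts above and below, and a library with several peaks in a site was given its widest. Sequence was read with pysam 0.24.0. The merging was tested on simulated data of 2000 sites that lay apart from each other, of which 2000 were recovered with the right libraries. The ranking was not part of it. No p-value was computed. Sites described in full were the Degs2 intron 1 site, the site of each gene called in the most libraries, sites over gene starts and sites with 4 calls in GF+HFM and none in CV+HFM. The alternatives were a minimum peak width of 300 bp, lists of equal length, 200 bp windows at peak midpoints, calls that cover 50% of a site, other flanks, and each library left out. Alternatives added after the data were seen were the libraries whose identifier ends in the letter A, percentiles among sites called in all 8 libraries, summed widths and motif windows at the core.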

Additional observations from a re-analysis of the deposited data

How the results depend on the processing

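The lower width percentile of the Degs2 intron 1 site in CV+HFM kept its direction in each alternative that gave a value, from -63.1 to -43.6 points with 1 library left out and at -55.2 with libraries whose identifier ends in A. The values of -54.6 with peaks of at least 300 bp and -41.6 with lists of equal length each rest on 1 CV+HFM library, replicates 1 and 4, and cannot show a group difference. It has no value with 200 bp windows, where all widths are equal, or where a call must cover 50% of the site, which no CV+HFM library did. The counts depended more on the settings. With each list limited to its 4533 widest peaks, there were 26 sites at the 8 genes, 11 called in more GF+HFM and 8 in more CV+HFM libraries, 4 in all 8 libraries, and the difference between groups shrank from -19.75 to -1.0 sites per library. Across all sites in such lists, 40.3% were called in more GF+HFM and 38.6% in more CV+HFM libraries. In gene bodies alone there were 20 sites, 15 with more GF+HFM calls and 5 called in all 8 libraries, with a difference of -6.5 sites. Sites called in all 8 libraries numbered 1 with peaks of at least 300 bp and 0 where a call must cover 50% of the site. With 1 library left out, the sites numbered 53 to 55, and those with more GF+HFM calls 34 to 42. Those called in all libraries numbered 13 to 18, and the difference ran from -23.9 to -15.6 sites. No share over all sites is given for gene bodies, for left-out libraries or for calls in all libraries under other settings. These counts therefore describe the settings only. In the full lists, 86.5% of all sites had more GF+HFM calls and 7.56% were called in all 8 libraries. No paired analysis was possible because the results come from no test. Depth is unknown, and its part in the short CV+HFM lists was not tested.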

Other observations

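The 5 libraries whose identifier ends in the letter A, 2 of GF+HFM and 3 of CV+HFM, gave mean counts of 45.0 and 29.7 called sites at the 8 genes. At the Degs2 intron 1 site their mean width percentiles were 97.8 and 42.6. What the letter stands for is not given in the sources used here.

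In lists of equal length, the sites of the 8 genes were called 11, 14, 14 and 15 times in GF+HFM and 11, 13, 13 and 13 times in CV+HFM replicates 1 to 4. The sites just inside the limit of 20 kb ended 19609 bp from Sptlc2, with 4 GF+HFM and 4 CV+HFM calls, and 19714 bp from Asah1, with 4 and 2 calls. Just outside it, sites 20583 bp from Degs1 and 21553 bp from Smpd3 had 4 and 2 calls each.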
